A study of Saccharomyces cerevisiae with 4 samples.

Results

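The genes described here are 10 genes of budding yeast, Saccharomyces cerevisiae, that form the pathway of the quiescence kinase Rim15 or are named for stationary phase: RIM15, IGO1, IGO2, GIS1, RPH1, MSN2, MSN4, SPG1, SPG4 and SPG5. They were taken by name from a table of 5897 genes, and all 10 were found in it. The RNA came from the industrial strain CY in 2 groups. The stress group held 2 libraries from cultures at 36 °C in rich medium with 10% glucose, and the non-stress group held 2 libraries from cultures at 30 °C in the same medium with 2% glucose. All cultures were shaken for 10 h before polyadenylated RNA was sequenced. No genotype other than the strain name is given, temperature and sugar differ between the groups at the same time and cannot be told apart, and how long sugar lasted in either culture was not measured here. The labels do not say that the replicates were separate cultures, so the tests measure the spread between these libraries, which may be technical. Values are FPKM, fragment numbers divided by gene length and by library size, so levels of different genes can be compared roughly. Low values fit a divisor 35 to 37 bases shorter than the gene length, which weighs most on short genes such as SPG1 (288 bases). In bulk RNA of this kind, fewer cells of a state and less RNA per cell cannot be told apart.

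Rim15 is a protein kinase that is held inactive while nutrients are plentiful by protein kinase A, by the TORC1 target Sch9 and by the cyclin-dependent kinase pair Pho85 and Pho80. When it is released it phosphorylates the small proteins Igo1 and Igo2, which then inhibit the phosphatase PP2A carrying its Cdc55 subunit, and it promotes expression through the transcription factors Gis1, Msn2 and Msn4. Rph1, the duplicate of Gis1, is a histone demethylase that represses genes until it is phosphorylated. In these cells the pathway is known for entry into quiescence, the resting state of starved yeast. Much of its control is by phosphorylation and by movement into the nucleus, which RNA levels do not show.

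The estimated depth was 18000000 and 18200000 fragments in the stress libraries and 18800000 and 18700000 in the non-stress libraries, and the Pearson r between replicates, taken across genes on the log2(FPKM + 1) scale, was 0.9977 for stress and 0.996 for non-stress. Stress was compared with non-stress by limma on that scale over 5784 genes, with Benjamini-Hochberg adjustment over all of them and a threshold of 0.05. Under this test 87.7% of all genes changed, 39.8% higher (2300 genes) and 47.9% lower (2771 genes). With ribosomal protein genes left out of the scaling the split was 1606 higher and 3574 lower. The median log2 fold change of all genes was -0.14. Ribosomal protein genes held 1.54% and 1.57% of the summed FPKM in stress libraries, against 22.5% and 23.7% in non-stress libraries, and FPKM are shares of a library, so small changes depend on how libraries are scaled. The median log2 fold change of all genes was -0.22 with equal FPKM sums, -0.57 with equal FPKM sums over genes other than ribosomal protein genes, 0.05 after median centring and 0.08 after quantile normalization. Changes below are from the deposited values unless another scaling is named.

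Of the 10 genes, 8 passed the test, 6 higher under stress (SPG4, SPG1, IGO2, GIS1, MSN4 and SPG5) and 2 lower (RIM15 and RPH1). That share lies near the 87.7% of all genes that passed, so the count does not set the 10 genes apart. The sizes range from a log2 fold change of -0.49 for RIM15 to 6.46 for SPG4, with a median of 0.46. IGO1 and MSN2 did not pass. The groups did not overlap for 9 of the 10 genes, all but IGO1, against 93.8% of all genes tested. With ribosomal protein genes left out of the scaling the split was 4 higher and 4 lower.

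**Figure D1:**
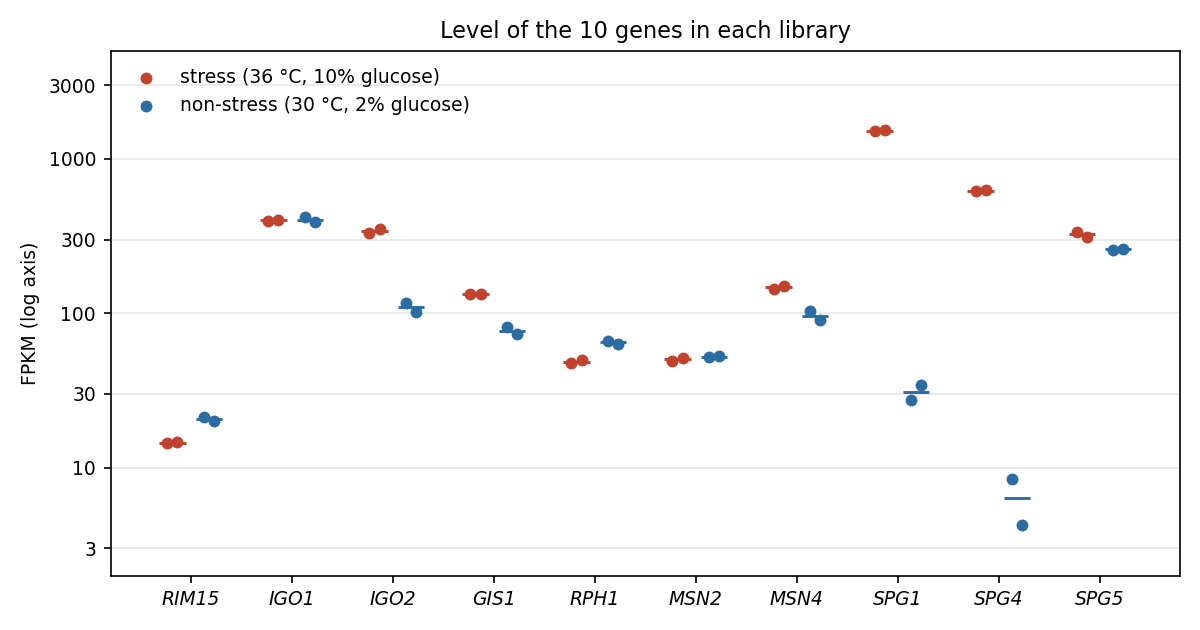
FPKM of the 10 genes in each library, on a log axis, with stress libraries in red and non-stress libraries in blue; points are libraries and lines are means of 2. SPG1 and SPG4 stand far apart between the groups, while IGO1 and MSN2 lie side by side.

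The order of the levels differed between the groups. In stress libraries the order by mean FPKM was SPG1 (1522), SPG4 (620.0), IGO1 (400.2), IGO2 (340), SPG5 (324), MSN4 (147), GIS1 (134), MSN2 (50.3), RPH1 (48.4) and RIM15 (14.5). The ranges of the neighbours IGO2 and SPG5 overlapped there, as did those of MSN2 and RPH1. In non-stress libraries the order was IGO1 (404), SPG5 (259), IGO2 (109), MSN4 (96.6), GIS1 (77.2), RPH1 (64.7), MSN2 (52.3), SPG1 (31.0), RIM15 (20.7) and SPG4 (6.33). Only the neighbours IGO2 and MSN4 had overlapping ranges there. SPG1 was the 127th highest gene of the table in stress libraries and the 4064th in non-stress libraries. SPG4 was the 317th in stress libraries and the 5507th in non-stress libraries. The 10 genes together held 0.338% and 0.340% of the summed FPKM in stress libraries, against 0.117% and 0.108% in non-stress libraries.

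RIM15, which encodes the kinase, was the lowest of the 10 genes under stress. It lies on chromosome VI at 69115 to 74427 on the minus strand of build R64, as a single coding exon. Its FPKM were 14.4 and 14.6 in stress libraries, against 21.2 and 20.1 in non-stress libraries. Both stress libraries lie below both non-stress libraries. RIM15 fell by 0.49 ± 0.084 (SE) on the log2 scale (limma adjusted p = 0.00047). The fall is not seen under every scaling: the log2 fold change was -0.90 without ribosomal protein genes and -0.30 after median centring, and after quantile normalization it was -3.71e-05 (limma adjusted p = 1).

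IGO1 and IGO2 encode the 2 endosulfine-type proteins that Rim15 phosphorylates, and they behaved unequally. IGO1 lies on chromosome XIV at 340352 to 340858 on the plus strand and IGO2 on chromosome VIII at 370054 to 370449 on the plus strand, each as a single coding exon. IGO2 had 329 and 350.0 FPKM in stress libraries, against 116 and 103 FPKM in non-stress libraries. All stress values are about 3 times the non-stress values. IGO2 rose 3.11-fold, by 1.63 ± 0.068 (SE) on the log2 scale (limma adjusted p = 1.56e-08), and was higher under each of the 4 other scalings, by 1.19 to 1.82. IGO1 had 397 and 404 FPKM in stress libraries, against 419 and 388 FPKM in non-stress libraries. The stress values lie between the non-stress values. The log2 fold change of IGO1 was -0.01, with a 95% interval of -0.14 to 0.11 (limma adjusted p = 0.853). With single libraries left out it ranged from -0.0675 to 0.0451. Other scalings moved it further: by limma it was -0.45 without ribosomal protein genes (adjusted p = 2.42e-05), -0.26 after quantile normalization (adjusted p = 0.00317) and 0.18 after median centring (adjusted p = 0.0173).

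The ratio of the duplicates within a library does not change when all values of that library are multiplied by a common factor. Quantile normalization is not such a scaling, and the ratios were not computed under it. IGO2 stood at 0.831 and 0.867 of the IGO1 level in stress libraries, against 0.277 and 0.264 in non-stress libraries. The minor duplicate of the non-stress cultures was thus nearly level with IGO1 under stress. Their summed level was 740 ± 19.5 FPKM in stress libraries and 513 ± 31.9 FPKM in non-stress libraries (SD, n = 2 each). The proteins are 53.4% identical over the aligned part, and 0% of the 50-base windows of either coding sequence occur in another gene, so no stretch of that length is common to both.

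The stretches before both IGO genes are shown because the pair share a function and differed in response. Each line runs from 250 bases before the start codon to 50 bases from it, in the direction of the gene, and comes from the R64 reference genome and not from strain CY. Capitals mark matches, on either strand, to 4 motifs chosen after results were known. These are the stress response element AGGGG that Msn2, Msn4, Gis1 and Rph1 are known to bind, the post-diauxic shift element (TAAGGGAT or TTAGGGAT), a heat shock element core (GAANNTTC or TTCNNGAA) and the TATA box (TATAAAAA, TATAAAAG, TATAAATA, TATAAATG, TATATAAA, TATATAAG, TATATATA or TATATATG). None of the first 3 contains another. Of 5893 such windows, 21.8% hold the stress response element, 1.61% the post-diauxic element, 22.7% the heat shock core and 37.8% the TATA box. The first line is chrXIV:340102-340401 on the plus strand and the second chrVIII:369804-370103 on the plus strand.
IGO1 promoter: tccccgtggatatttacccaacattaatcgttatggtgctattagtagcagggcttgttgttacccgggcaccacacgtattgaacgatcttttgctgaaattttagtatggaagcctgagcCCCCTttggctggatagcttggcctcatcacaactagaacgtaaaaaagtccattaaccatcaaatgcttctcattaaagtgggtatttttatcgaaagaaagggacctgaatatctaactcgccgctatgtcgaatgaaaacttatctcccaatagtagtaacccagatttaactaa
IGO2 promoter: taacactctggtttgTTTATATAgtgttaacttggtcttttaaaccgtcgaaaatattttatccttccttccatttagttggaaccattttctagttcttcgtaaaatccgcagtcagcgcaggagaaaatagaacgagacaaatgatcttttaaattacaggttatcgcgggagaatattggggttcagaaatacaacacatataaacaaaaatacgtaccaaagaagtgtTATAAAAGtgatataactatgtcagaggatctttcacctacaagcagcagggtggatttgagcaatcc
IGO1 has 1 stress response element, on the opposite strand, 128 bases before its start codon, and IGO2 has none in this window. IGO2 has 2 TATA matches, 235 and 18 bases before the start codon. In 600 bases before the start codon, where 40.0% of genes hold a stress response element, IGO2 again has 0 and IGO1 has the same 1. The nearest upstream genes are PGA1, 143 bases before IGO1, and ECM14, 259 bases before IGO2. The far part of the IGO1 line and of both 600-base stretches thus lies in or beyond these genes. A match describes these letters and says nothing of what binds there.

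GIS1 and RPH1 encode duplicate zinc finger proteins with a JmjC domain, and they moved in opposite directions. GIS1, an activator of post-diauxic genes on chromosome IV at 637139 to 639823 (plus strand), had 133 and 134 FPKM in stress libraries, against 81.3 and 73.2 FPKM in non-stress libraries. It rose 1.73-fold (log2 fold change 0.79 ± 0.063, SE; limma adjusted p = 1.99e-06), and by 0.35 to 0.98 under the 4 other scalings. RPH1, the repressor on chromosome V at 523369 to 525759 (plus strand), had 47.4 and 49.4 FPKM in stress libraries, against 66.3 and 63.1 FPKM in non-stress libraries. It fell by 0.41 ± 0.063 (SE) on the log2 scale (limma adjusted p = 0.00019), and was lower under the other scalings too, at -0.85 to -0.22. Neither pair of groups overlaps. Within a library, GIS1 stood at 2.82 and 2.71 times RPH1 in stress libraries, against 1.22 and 1.16 times in non-stress libraries. The summed level of both was 182 ± 1.95 FPKM in stress libraries and 142 ± 7.98 FPKM in non-stress libraries (SD, n = 2 each).

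MSN2 and MSN4 encode the duplicate zinc finger activators of the general stress response. MSN4, on chromosome XI at 323228 to 325120 (plus strand), had 144 and 150.1 FPKM in stress libraries, against 103 and 90.1 FPKM in non-stress libraries. It rose 1.52-fold (log2 fold change 0.60 ± 0.071, SE; limma adjusted p = 3.14e-05), but its log2 fold change was 0.16 and did not pass (adjusted p = 0.0527) without ribosomal protein genes. MSN2, on chromosome XIII at 344403 to 346517 (minus strand), had 49.3 and 51.3 FPKM in stress libraries, against 52.1 and 52.5 FPKM in non-stress libraries. Its stress values lie just below the non-stress values. The log2 fold change was -0.06 with a 95% interval of -0.19 to 0.08 (limma adjusted p = 0.41), and the other scalings gave -0.49 (without ribosomal protein genes, adjusted p = 3.38e-05) to 0.13 (median centring). MSN4 stood at 2.91 and 2.93 times MSN2 in stress libraries, against 1.98 and 1.71 times in non-stress libraries.

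In each of the 3 duplicate pairs 1 gene gained on the other under stress. The change of the log2 ratio was 1.64 for IGO2 over IGO1, 1.198 for GIS1 over RPH1 and 0.66 for MSN4 over MSN2. An exact two-sided permutation test over 2 against 2 libraries gives p = 0.33 for each, which is the smallest it can give. A limma fit of the log2 ratio over 1018 reciprocal best protein pairs of the genome, chosen after the data were seen, gave the same changes with adjusted p = 4.25e-05, 0.000101 and 0.00251. No limit on identity was set, so not all of these pairs need be duplicates. Of all those pairs 85.8% passed this fit, and by size of change the 3 ranked 309th, 442nd and 642nd of 1018. That share lies near the 87.7% of all genes that passed singly. The 3 pairs were thus not among the most unequal of this set. Whether duplicates differ more than other gene pairs was not tested.

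**Figure D2:**
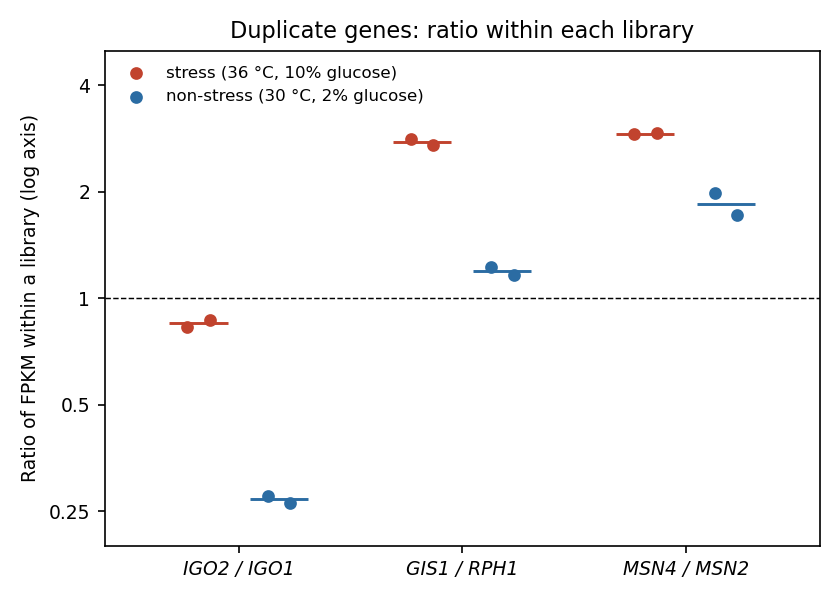
Ratio of the FPKM of 2 duplicate genes within each library, on a log axis, with stress libraries in red and non-stress libraries in blue; points are libraries, lines are means of 2, and the dashed line marks equal levels. IGO2 over IGO1 shows the widest gap, at 0.849 (mean of stress libraries) against 0.271 (mean of non-stress libraries).

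SPG1, SPG4 and SPG5 were named for stationary phase: SPG1 and SPG4 are known as genes needed for survival of resting cells at high temperature, and Spg5 binds the proteasome in stationary phase. SPG4, on chromosome XIII at 483014 to 483361 (plus strand), had 616 and 624 FPKM in stress libraries, against 8.39 and 4.27 FPKM in non-stress libraries. The 2 stress libraries agree closely, and the 2 non-stress libraries differ by nearly a factor of 2 and rest on an estimated 49 and 25 fragments. SPG4 rose 97.9-fold, by 6.46 ± 0.21 (SE) on the log2 scale (limma adjusted p = 2.58e-09), the 16th largest rise of 5784 genes. The fold was 145 without non-stress replicate 1 and 73.9 without non-stress replicate 2. SPG1, on chromosome VII at 962530 to 962817 (minus strand), had 1513 and 1531 FPKM in stress libraries, against 27.6 and 34.5 FPKM in non-stress libraries. It rose 49.1-fold (5.58 ± 0.090 on the log2 scale, SE; limma adjusted p = 2.78e-11), the 26th largest rise. SPG5, on chromosome XIII at 645656 to 646777 (plus strand), had 335 and 313 FPKM in stress libraries, against 257 and 262 FPKM in non-stress libraries. It rose 1.25-fold (log2 fold change 0.32 ± 0.053, SE; limma adjusted p = 0.000368), but with ribosomal protein genes left out of the scaling its log2 fold change was -0.12 (adjusted p = 0.0577), and after quantile normalization it was 0.0945 (adjusted p = 0.109). The shared name therefore covers 2 genes with rises far above the median of all genes and 1 that was already abundant in non-stress cultures.

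The windows before the SPG genes are shown because 2 of them rose far more than the third. They are drawn as for the IGO genes, and lie at chrVII:962768-963067 (minus strand), chrXIII:482764-483063 (plus strand) and chrXIII:645406-645705 (plus strand).
SPG1 promoter: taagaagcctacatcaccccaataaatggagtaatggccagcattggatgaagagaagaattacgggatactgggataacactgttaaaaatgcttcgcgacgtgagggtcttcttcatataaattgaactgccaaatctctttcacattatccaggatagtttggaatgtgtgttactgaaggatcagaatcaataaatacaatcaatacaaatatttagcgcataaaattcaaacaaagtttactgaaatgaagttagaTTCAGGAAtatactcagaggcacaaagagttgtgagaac
SPG4 promoter: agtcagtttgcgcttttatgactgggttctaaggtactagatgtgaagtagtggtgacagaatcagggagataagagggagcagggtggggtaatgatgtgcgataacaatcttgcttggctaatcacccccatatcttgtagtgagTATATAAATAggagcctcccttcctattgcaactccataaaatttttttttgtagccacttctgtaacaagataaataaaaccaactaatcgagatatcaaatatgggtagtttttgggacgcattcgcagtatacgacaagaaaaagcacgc
SPG5 promoter: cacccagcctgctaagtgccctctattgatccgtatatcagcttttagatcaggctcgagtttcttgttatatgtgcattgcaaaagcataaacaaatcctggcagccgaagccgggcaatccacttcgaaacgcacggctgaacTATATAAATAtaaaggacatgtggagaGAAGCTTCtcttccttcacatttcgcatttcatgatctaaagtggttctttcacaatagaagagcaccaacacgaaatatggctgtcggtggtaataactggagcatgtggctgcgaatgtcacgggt
None of the 3 holds a stress response element or a post-diauxic element in this window, and none does in 600 bases before the start codon. Those 600 bases run into the upstream gene for SPG1 (YGR237C, 480 bases away) and for SPG5 (SGS1, 397 bases away). SPG4 and SPG5 both have overlapping TATA matches, 103 and 101 bases before the start codon in SPG4 and 105 and 103 bases before it in SPG5, and SPG1 has none. SPG5 also has a heat shock core 78 bases before its start codon, and SPG1 has 1 inside its coding sequence. Over all 10 genes, stress response elements were found in the windows of IGO1 and RPH1 only (2 of 10, against 21.8% of all windows). In 600 bases before the start codon they were found for IGO1, GIS1, RPH1 and MSN2 (4 of 10, against 40.0% of all genes). The post-diauxic element was found before none of the 10, and only 1.61% of all windows hold it. The heat shock core was in 4 of the 10 windows (22.7% of all) and the TATA box in 5 (37.8% of all). The counts of the first 2 motifs thus do not set the 10 genes apart. The lists of downstream genes described below were counted in the same way. In the list of 12 targets of Msn2 and Msn4, 11 windows held a stress response element. Of the 7 post-diauxic genes reported to need Gis1, 2 windows held a stress response element and 1 a post-diauxic element. Of the 7 genes that Rph1 or Gis1 are reported to repress, 5 windows held a stress response element and 0 a post-diauxic element. In 600 bases before the start codon, the stress response element was found for 12 of 12, 5 of 7 and 4 of 7 genes of these lists, in that order. The post-diauxic element was found there for 2, 2 and 0, against 3.06% of all genes.

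No other annotated gene overlaps any of the 10 coding sequences, and 0% of their 50-base windows recur in other coding sequences. Of the genes nearest to SPG1 and SPG4, 3 were measured and none had a rise of their size; YMR106W-A, upstream of SPG4, was not analysed here. The upstream neighbour of SPG1, YGR237C, had a log2 fold change of 0.63. ILV2, an enzyme gene of branched-chain amino acid synthesis that lies 722 bases beyond SPG4 on the same strand, had a log2 fold change of -2.84 ± 0.056 (SE). MIC26, a mitochondrial membrane organizing gene 468 bases beyond SPG1 on the same strand, had 542 FPKM in stress libraries and 81.4 FPKM in non-stress libraries (log2 fold change 2.72 ± 0.053, SE). Beside IGO2, the log2 fold changes were 0.82 for ECM14 and -2.26 for NSG1. These neighbours were named for their position.

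**Figure D3:**
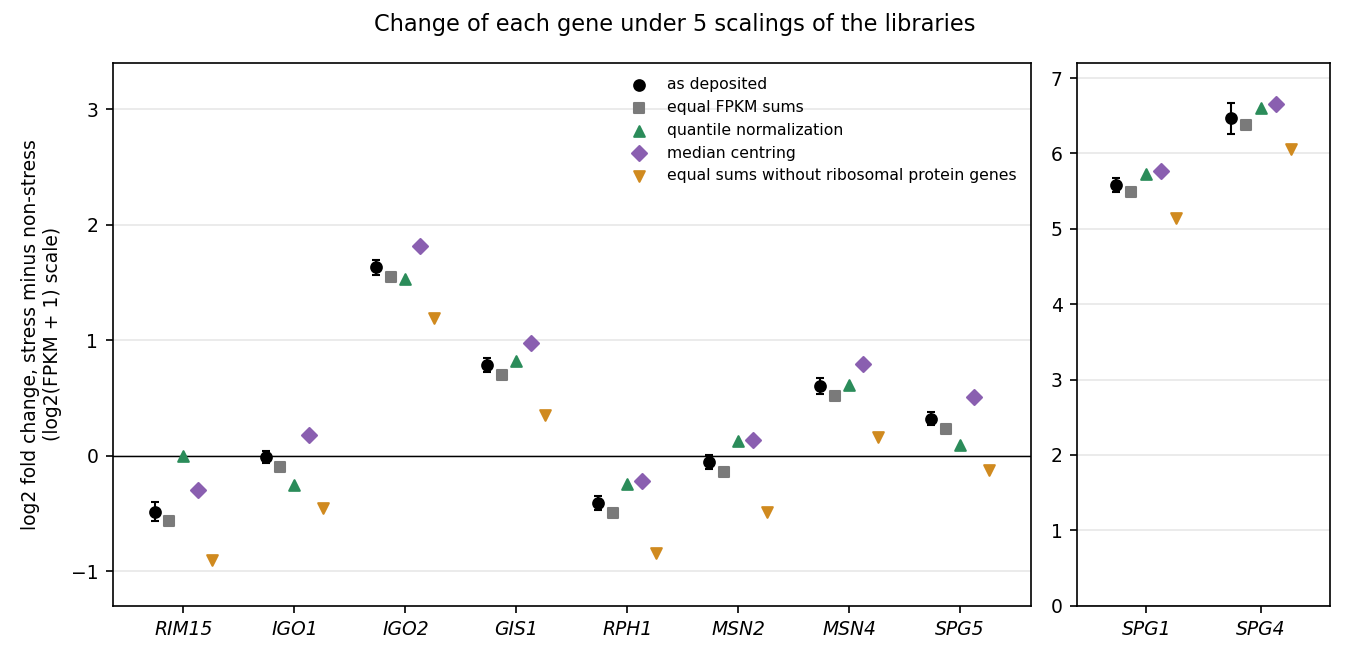
Log2 fold change of each gene, stress minus non-stress on the log2(FPKM + 1) scale, under 5 scalings of the libraries; symbols are scalings, error bars are the SE of the fit to the deposited values, and SPG1 and SPG4 have a panel with its own axis. IGO2, GIS1, MSN4, SPG1 and SPG4 lie above 0 under all 5 and RPH1 below 0, whereas IGO1, MSN2 and SPG5 change sign and RIM15 reaches 0 after quantile normalization.

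Around these genes, 11 lists of related genes were examined. Counts of passing genes in a list are to be read against the 87.7% of all genes that passed, 39.8% higher and 47.9% lower. Genes that act on Rim15 from upstream, namely kinases and binding proteins that restrain it, the protein kinase A subunit BCY1 that acts the opposite way, and TORC1 subunits, went both ways: 8 of 13 were higher and 4 lower, at a median of 0.66 (log2) against -0.14 over all genes, and 7 and 5 without ribosomal protein genes. BCY1, the regulatory subunit that restrains protein kinase A, had 799 ± 2.27 FPKM in stress libraries and 230.0 ± 1.99 FPKM in non-stress libraries (SD, n = 2), a 3.47-fold rise. PHO85, the cyclin-dependent kinase, rose 3.39-fold (417 ± 2.04 against 123 ± 7.69 FPKM), and its cyclin PHO80 rose 1.62-fold. In contrast, SCH9, the TORC1 target kinase, had 35.7 ± 0.969 FPKM in stress libraries and 65.6 ± 1.61 FPKM in non-stress libraries, a fall by 0.86 ± 0.063 (SE) on the log2 scale (limma adjusted p = 9.78e-07). TPK3, a catalytic subunit of protein kinase A, was 3.28-fold lower.

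The target of Igo1 and Igo2 is PP2A. Of 10 genes for PP2A subunits and helpers, 6 were higher and 2 lower, at a median of 0.54 (log2), and 5 and 4 without ribosomal protein genes. The number that passed, 8 of 10, is near the 87.7% of all genes and sets the list apart in no way. CDC55, the subunit that phosphorylated Igo proteins bind, had 117 ± 1.12 FPKM in stress libraries and 68.7 ± 0.870 FPKM in non-stress libraries, a 1.70-fold rise (limma adjusted p = 7.49e-07). TPD3, the scaffold subunit, rose 1.70-fold, RTS1, the other regulatory subunit, 1.79-fold, and PPM1, which methylates the catalytic subunit, 1.78-fold. The catalytic subunit genes share 15.2% (PPH21) and 14.8% (PPH22) of their windows with other genes. PPH21 did not pass (log2 fold change 0.09); its call reversed with the setting. It passed as higher after median centring (0.28) and without non-stress replicate 2 (0.13), passed as lower without ribosomal protein genes (-0.35), and was negative and did not pass after quantile normalization and with equal FPKM sums. PPH22 passed at -0.21 (limma adjusted p = 0.0305), but no longer after quantile normalization, median centring, with no filter, without stress replicate 1 or without non-stress replicate 2.

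Of 8 genes for factors of messenger RNA decay and binding that are linked to Igo1, 4 were higher and 2 lower (median 0.25), and 2 and 4 without ribosomal protein genes. The 6 of 8 that passed are not more than the 87.7% of all genes. PBP4 and LSM12, which encode partners of the poly(A)-binding-protein binding factor Pbp1, rose 3.23-fold and 2.37-fold, while CCR4, a deadenylase, and PAT1, a decapping activator, had log2 fold changes of -0.41 and -0.26; PAT1 did not pass after median centring (-0.07). Of 11 regulators of Msn2 and Msn4, 4 were higher and 3 lower, at a median of 0.08, and 1 and 8 without ribosomal protein genes. SSN8, a cyclin, rose 1.81-fold while its kinase SSN3 was 1.42-fold lower. SNF1, the glucose-repression kinase, was 1.44-fold lower, and WHI2, a cofactor of the Psr phosphatases, rose 1.47-fold; without ribosomal protein genes WHI2 did not pass (0.11).

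Genes downstream of the transcription factors were higher. These lists were chosen knowing that such genes rise here, so their direction is a description. All 7 post-diauxic genes reported to need Gis1 were higher, at a median of 3.52 (log2), and all 7 were also higher under the 4 other scalings. SSA3, an Hsp70 gene that is the model target of the post-diauxic element, had 443 ± 20.9 FPKM in stress libraries and 37.6 ± 1.17 FPKM in non-stress libraries (SD, n = 2), an 11.8-fold rise. GRE1, a hydrophilin gene, and DDR2, a small stress protein gene, rose 254-fold and 274-fold. All 12 targets of Msn2 and Msn4 were higher, with a median of 1.67, led by TFS1 (19.1-fold) and SOL4 (16.5-fold); 11 of the 12 passed after quantile normalization and 11 without ribosomal protein genes. The rises of these targets stand beside log2 fold changes of 0.60 for MSN4 and -0.06 for MSN2.

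Genes that Rph1 or Gis1 are reported to repress were higher as well. All 7 passed, at a median of 0.95 (log2); 6 passed with equal FPKM sums, and without ribosomal protein genes 6 were higher and 1 lower. PHR1, the photolyase gene after whose repression Rph1 was named, had 115 ± 0.170 FPKM in stress libraries and 47.9 ± 1.62 FPKM in non-stress libraries, a 2.41-fold rise. ATG8, the ubiquitin-like protein of autophagosomes, rose 4.69-fold, to 968 ± 16.6 FPKM in stress libraries against 206 ± 24.0 FPKM in non-stress libraries, and ATG14, a subunit of the autophagy lipid kinase, rose 3.05-fold. RPH1 itself was lower in the same libraries (log2 fold change -0.41), while GIS1, the other reported repressor, was higher (0.79). The part of either gene in the rises of this list was not tested.

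Among 8 other genes known from stationary phase all were higher, with a median of 1.09, and 5 passed as higher without ribosomal protein genes. SNZ2 and SNZ3, vitamin B6 synthesis genes that share 77.1% of their windows with other genes, so that their split is uncertain, rose 21.6-fold and 22.3-fold. Of 10 subunits of the proteasome base, the particle that Spg5 binds, 6 were higher and 1 lower (median 0.16), against 3 higher and 6 lower (median -0.28) without ribosomal protein genes. RPN10 and RPT6 rose 1.79-fold and 1.69-fold, and RPN1 had a log2 fold change of -0.25, which did not pass after median centring (-0.06).

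Regulators of the G1 phase and of ribosome synthesis went both ways: 3 of 9 were higher and 5 lower (median -0.21), against 87.7% of all genes passing in either direction, and 2 were higher and 7 lower (median -0.65) without ribosomal protein genes. CLN2, a cyclin of the step into S phase, had 9.29 ± 0.134 FPKM in stress libraries and 48.7 ± 0.700 FPKM in non-stress libraries, 5.24-fold lower. TOD6, a repressor of ribosome synthesis genes, was 3.44-fold lower. CLN3, the upstream G1 cyclin, rose 1.82-fold. SIC1, a cyclin-dependent kinase inhibitor, passed with a log2 fold change of only 0.15, which became -0.29 without ribosomal protein genes and did not pass after quantile normalization, with equal FPKM sums or without stress replicate 1. Meiosis genes, a marker of another state that starved diploid yeast can enter and one in which Rim15 also acts, were at 2 higher and 5 lower of 8, with a median of -0.71, against 87.7% of all genes passing in either direction. The split was 3 and 3 after quantile normalization, 3 and 5 after median centring, 1 and 5 with equal FPKM sums and 1 and 6 (median -1.09) without ribosomal protein genes. Their summed level was 112 and 113 FPKM in stress libraries, against 120.3 and 117 FPKM in non-stress libraries, and none was at 0. IME1, the master activator, rose 2.08-fold, NDT80, the activator of the middle meiotic genes, was 1.91-fold lower, and DMC1, a recombinase gene, had a log2 fold change of 0.26, which became -0.16 without ribosomal protein genes and did not pass with equal FPKM sums or without either stress library. The part of these genes in the values of the 10 genes was not tested.

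**Figure D4:**
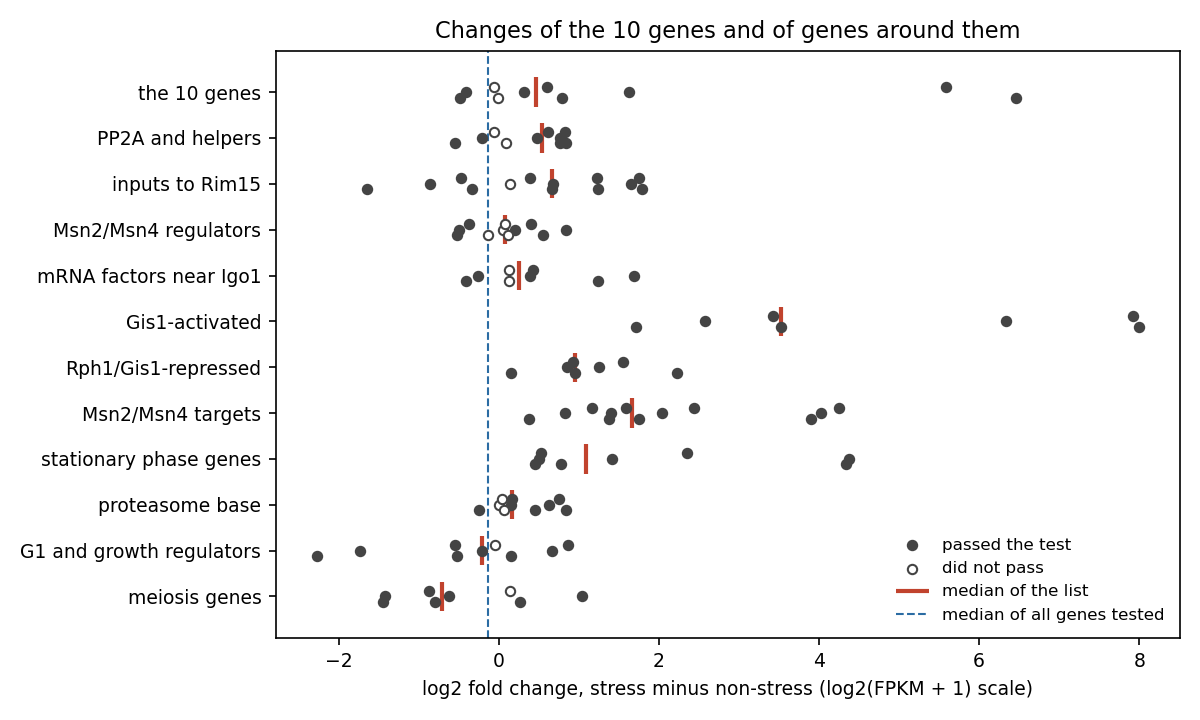
Log2 fold changes, stress minus non-stress on the log2(FPKM + 1) scale, of the 10 genes and of the genes of 11 lists around them; filled points passed limma's test, open points did not, red bars are medians of a list and the dashed line is the median of all genes tested. The genes downstream of the transcription factors lie to the right of 0, while the kinase, phosphatase and G1 lists spread on both sides.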

How the data were processed

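Polyadenylated RNA of 4 libraries of strain CY was sequenced, 2 stress and 2 non-stress, grouped by the labels. The authors deposited 1 table of FPKM values per gene and library. The submitters' processing notes name HISAT2 2.1.0, Bowtie2 2.2.5, RSEM 1.2.8 and build R64, with no role or order; read filters are not given in the sources used here. Gene lengths in the table are coding lengths (98.8% are multiples of 3). FPKM hold no counts, so depth was estimated from the steps between low values, and no count test was run. On fragments estimated this way replicates differed beyond counting error for some genes (chi-square of 29.9 for MSN4 between non-stress libraries and 16.3 for SPG5 between stress libraries, 1 degree of freedom each), and no pair was counted as 1 library.

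Stress was compared with non-stress by limma 3.58.1 in R 4.3.3 (lmFit, eBayes with trend) on log2(FPKM + 1), a pseudocount of 1 that understates changes of low genes. A gene entered the fit if 2 or more libraries reached an FPKM of 1, which kept 5784 of 5897 genes and all 10 members. Tests were two-sided (residual degrees of freedom 2, prior 6.51) and adjusted over all genes tested (Benjamini-Hochberg, threshold 0.05). The fit was tested on simulated data. Plain folds are ratios of mean FPKM.

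Duplicate ratios were tested by an exact permutation test and, as an alternative added after the data were seen, by limma over 1018 reciprocal best protein pairs (BLAST 2.17.0 on translated reference coding sequences). All 10 genes had identical coordinates in the table and in the R64 RefSeq genome, from which promoter windows were read. Python 3.11.15 was used for tables and figures. Alternatives were 4 other scalings, a pseudocount of 0.1, a filter at an FPKM of 5 or none, a replicate block, each library left out and a threshold of 0.01. The members and lists were chosen with earlier results of these data known. From each list the text names up to 2 of the largest rises and 2 of the largest falls among passing genes with a mean of 20 FPKM or more in the higher group, and in every case CDC55, TPD3, PPH21, PPH22, SCH9, PHO85, PHO80, BCY1, SSA3 and PHR1. Other genes named lie beside members.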

Additional observations from a re-analysis of the deposited data

How the results depend on the processing

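SPG1, SPG4, IGO2, GIS1 and RPH1 kept direction and call under every alternative run. Of 120 alternative values of the 10 genes, 108 kept both. After quantile normalization RIM15 was at -3.71e-05 and SPG5 at 0.0945, neither passing, IGO1 at -0.26 and passing, and MSN2 at 0.13 and not passing. After median centring IGO1 was at 0.18 and passing and MSN2 at 0.13 and not passing. With equal FPKM sums without ribosomal protein genes IGO1 was at -0.45 and MSN2 at -0.49, both passing, MSN4 at 0.16 and SPG5 at -0.12, neither passing, and 4 members were lower. With single libraries left out IGO1 ranged from -0.0675 to 0.0451. Among other named genes, PPH21 was at -0.0416 after quantile normalization, -0.000118 with equal FPKM sums and -0.35 without ribosomal protein genes, where SIC1 was at -0.29 and DMC1 at -0.16. The limma fit over reciprocal best protein pairs gave 1.64 (IGO2 over IGO1), 1.198 (GIS1 over RPH1) and 0.66 (MSN4 over MSN2), all passing, against an exact test that cannot pass. With a pseudocount of 0.1 these were 1.65, 1.21 and 0.66. With single libraries left out the first ranged from 1.61 to 1.67, the second was 1.17 and 1.22 without a stress library and 1.24 and 1.16 without a non-stress library, and the third was 0.66 and 0.65 without a stress library and 0.76 and 0.56 without a non-stress library. With a replicate block they were 1.64, 1.198 and 0.66. Same-numbered libraries did not deviate together (correlation -0.005 over 5784 genes). With so few libraries this cannot show whether equal numbers were handled as pairs, which the labels do not say. The block changed no call of the 10 genes. The causes of these changes were not tested. With 2 libraries a group and an estimated 25 to 49 fragments for SPG4 in non-stress libraries, the size of its fold is the least certain.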
